A study of Homo sapiens with 6 samples.

Results

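The genes described here are 9 members of the bone morphogenetic protein (BMP) and activin pathways, the ligand genes BMP2, BMP4, BMP6 and INHBA, the antagonist genes GREM1 and FST and the target genes ID1, ID2 and ID3. They were chosen by gene symbol, with earlier results of these data known. They stand among 61806 genes of the deposited table, of which 15704 had enough counts to be tested, the 9 included. RNA was sequenced from HFF cells, a wild-type culture of human foreskin fibroblasts from a cell bank, in 3 libraries of the UVB + sauchinone group and 3 libraries of the UVB group. Both groups were irradiated with ultraviolet B (UVB) at 40 mJ per cm2. The UVB + sauchinone cells were then kept with 10 µM sauchinone, a plant lignan, and the UVB cells with vehicle, for 48 h. The labels also describe a version with the compound added before irradiation and do not say which version gave these libraries. The labels do not give the origin of the replicates, so p-values speak for these 6 libraries, whose spread may be technical. Unirradiated cells were not analysed here.

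BMPs are secreted ligands that bind receptor kinases at the cell surface, and these phosphorylate SMAD1, SMAD5 and SMAD9. Activins are dimers of inhibin beta subunits that signal through related receptors to SMAD2 and SMAD3. Both routes use SMAD4 as partner and are restrained outside the cell by antagonists that bind the ligands. The ID genes are classical immediate targets of BMP signalling, and their products bind E proteins and keep them from binding DNA.

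Libraries held 20984851 to 23076388 counts, and 3 counts came to 0.130 to 0.143 CPM (counts relative to library size), a detection floor set by counting error alone. Of all genes tested, 24.9% were lower and 24.7% higher with sauchinone, and the marker counts that follow stand beside these shares. All 12 fibroblast markers were detected, and 10 of them were lower and 1 higher with sauchinone. Their summed level ran from 13630 to 13940 CPM in UVB + sauchinone and from 19370 to 21130 CPM in UVB. Of 8 pericyte and smooth muscle markers, none was at 0 in all libraries and 5 were lower, with sums of 172 to 189 CPM in UVB + sauchinone and 356 to 359 CPM in UVB. The 8 keratinocyte markers summed to 15.7 to 17.2 CPM in UVB + sauchinone and 14.1 to 14.7 CPM in UVB, with KRT5, KRT1 and DSG3 at 0 throughout. Most of that sum was KRT10, at means of 12.9 CPM in UVB + sauchinone and 11.1 CPM in UVB. The 7 melanocyte markers summed to 43.3 to 44.1 CPM in UVB + sauchinone and 55.9 to 64.3 CPM in UVB, with DCT at 0 and 2 of the 7 lower. Nearly all of that sum was MITF, at means of 42.1 CPM in UVB + sauchinone and 57.2 CPM in UVB. The other lower one, MLANA, was at 0.396 CPM in UVB + sauchinone and 1.17 CPM in UVB. MLANA passed the filter on low counts only through UVB, the group where it was high, so its call is no support. PMEL, at 1.00 CPM in UVB + sauchinone and 0.705 CPM in UVB, did not pass. The 7 endothelial markers summed to 1.04 to 1.51 CPM in UVB + sauchinone and 0.865 to 1.11 CPM in UVB, with CDH5 and KDR at 0, and the 6 immune markers to 4.33 to 5.22 CPM in UVB + sauchinone and 3.39 to 4.21 CPM in UVB, with CD3E at 0. The part of these marker shifts in the results below was not tested. In bulk RNA, fewer cells of a type and less RNA per cell cannot be told apart.

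With sauchinone, the antagonist genes GREM1 and FST and the activin gene INHBA fell, the 3 ID genes and the ligand genes BMP2 and BMP6 rose, and BMP4 did not pass the test. GREM1 and FST were 1.89-fold and 1.88-fold lower and INHBA 1.64-fold lower. ID1, ID2 and ID3 were 1.5-fold, 1.37-fold and 1.42-fold higher, and BMP2 and BMP6, both at low levels, 2.16-fold and 3.93-fold higher. By the quasi-likelihood test of edgeR, with p-values adjusted over all genes and a threshold of 0.05, 5 of the 9 were higher, 3 lower and 1 did not pass. BMP6, 1 of the 5, passed the filter on low counts only through the group where it was high, so its call is no support. Of all genes tested, 49.6% passed (24.7% higher and 24.9% lower), and the groups did not overlap in 57.1%, whereas they did not overlap in 8 of the 9 here. The 9 genes were chosen with earlier results of these data known, so their shares describe these data and support nothing. Passing the test was common in this comparison, and the size and direction of each gene are given below.

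**Figure D1:**
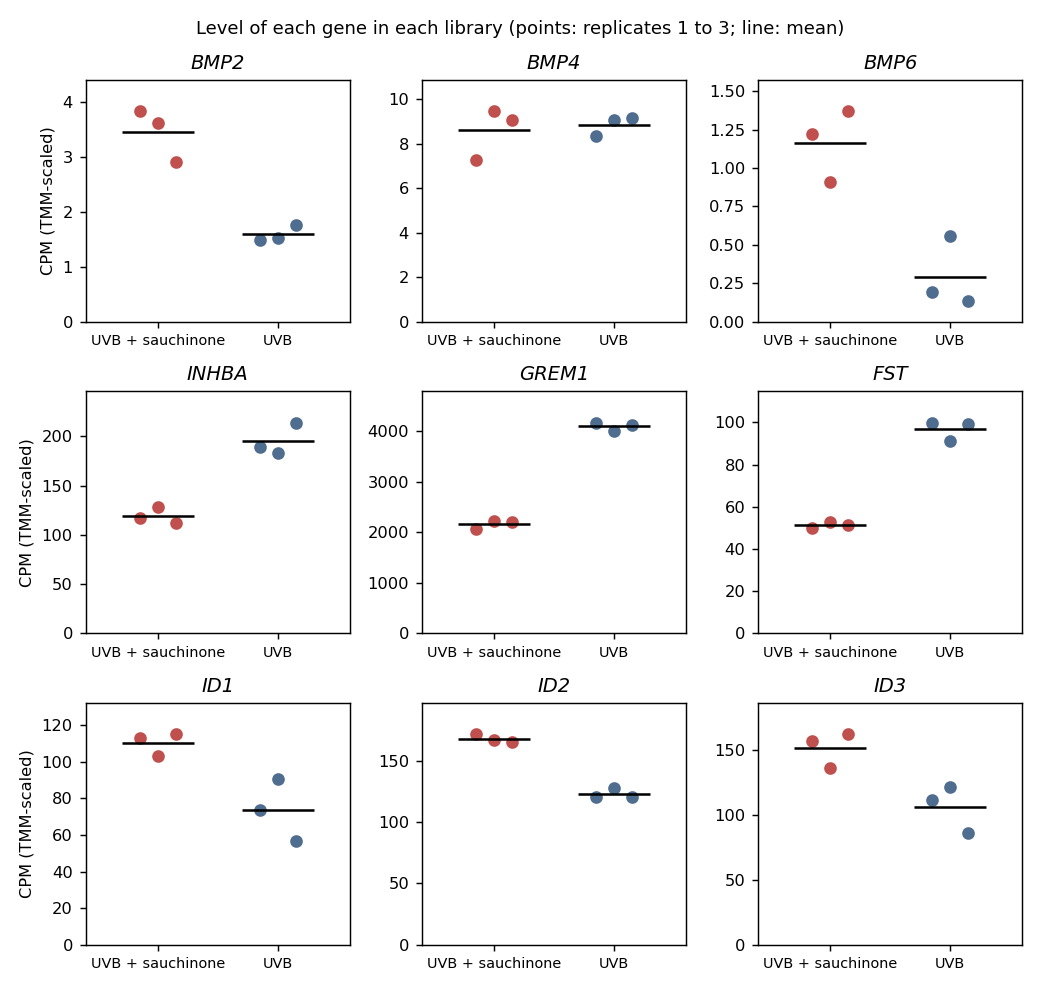
Level of each of the 9 genes in each library, in CPM on TMM-adjusted library sizes on linear axes that start at 0; points are replicates 1 to 3 of UVB + sauchinone (left) and UVB (right) and lines are group means. The groups are separate in every panel but that of BMP4, and the UVB points of ID1 and ID3 are spread more widely than those of ID2.

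Levels of different genes are compared as FPKM, which scales a count by exonic size. GREM1 was the highest of the 9 in both groups, at 149 ± 5.22 FPKM in UVB + sauchinone and 273 ± 7.32 FPKM in UVB (mean ± SD, n = 3 in each group, here and below). By mean FPKM it ranked 185 among all 61806 genes in UVB + sauchinone and 79 in UVB. ID3 followed at 103 ± 10.3 FPKM in UVB + sauchinone and 70.2 ± 12.0 FPKM in UVB, ID1 at 90.8 ± 6.02 FPKM in UVB + sauchinone and 58.7 ± 13.2 FPKM in UVB, and ID2 at 77.1 ± 1.94 FPKM in UVB + sauchinone and 54.6 ± 1.64 FPKM in UVB. ID3 lay above ID1 within each library, although their ranges overlapped in both groups. ID1 lay above ID2 within each library but UVB replicate 3, and their ranges overlapped in UVB and not in UVB + sauchinone. FST lay at 19.0 ± 0.367 FPKM in UVB + sauchinone and 34.6 ± 1.94 FPKM in UVB, above INHBA at 14.6 ± 0.921 FPKM in UVB + sauchinone and 23.2 ± 1.92 FPKM in UVB, with no overlap between the genes in either group. That order rests on the deposited exonic sizes, 2752 bases for FST and 8284 for INHBA. In CPM, INHBA was the higher, at means of 119 in UVB + sauchinone and 195 in UVB. FST was at means of 51.4 CPM in UVB + sauchinone and 96.7 CPM in UVB. The BMP ligands were the lowest, with BMP4 at 2.82 ± 0.366 FPKM in UVB + sauchinone and 2.81 ± 0.134 FPKM in UVB. BMP2 was at 0.993 ± 0.139 FPKM in UVB + sauchinone and 0.443 ± 0.040 FPKM in UVB, and BMP6 at 0.313 ± 0.067 FPKM in UVB + sauchinone and 0.073 ± 0.059 FPKM in UVB.

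**Figure D2:**
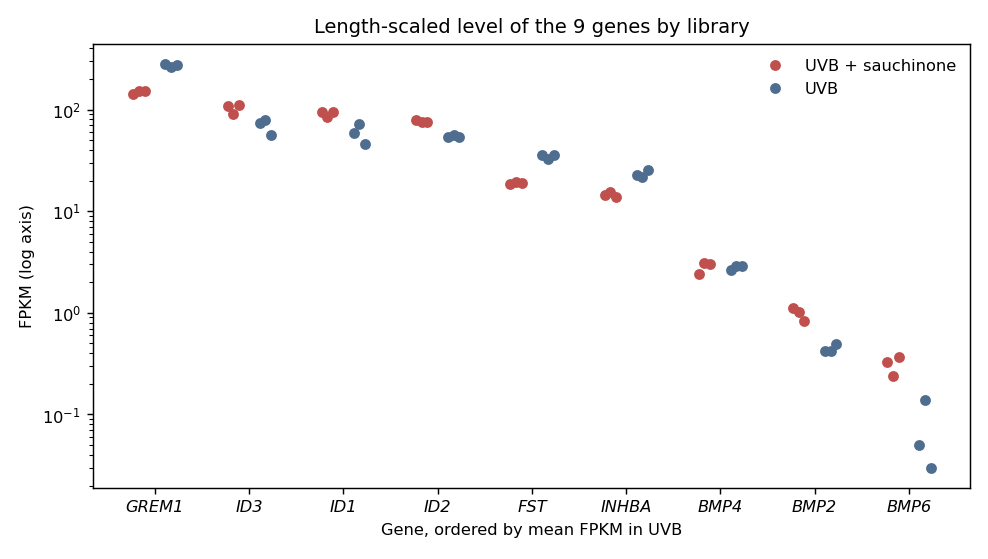
Deposited FPKM of the 9 genes on a log axis, ordered by mean FPKM in UVB; each point is 1 library, with UVB + sauchinone left of UVB. The antagonist gene GREM1 lies at 143 to 152 FPKM in UVB + sauchinone and 265 to 280 FPKM in UVB, above every BMP ligand gene by more than an axis decade.

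Among the ligands, BMP2, which encodes an osteogenic BMP (ENSG00000125845, chromosome 20 at 6767686 to 6780246, plus strand, GRCh38), had 85, 84 and 68 counts in UVB + sauchinone replicates 1, 2 and 3, against 31, 33 and 40 in UVB replicates 1, 2 and 3. Each UVB + sauchinone library lay above each UVB library. Its level was 3.46 ± 0.486 CPM in UVB + sauchinone and 1.59 ± 0.148 CPM in UVB, a log2 fold change of 1.11 ± 0.24 (SE; edgeR adjusted p = 0.000426). The ratio of summed counts was 2.16, with a 95% exact binomial interval of 1.71 to 2.75 that covers counting error only.

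BMP6, which encodes a ligand best known from iron control in the liver (ENSG00000153162, chromosome 6 at 7726099 to 7881728, plus strand), had 27, 21 and 32 counts in the UVB + sauchinone libraries, against 4, 12 and 3 in the UVB libraries. UVB replicate 3 was at the floor. The gene passed the filter on low counts only through UVB + sauchinone, the group where it was high. A difference was therefore built in, and its p supports nothing. The log2 fold change was 1.97 ± 0.48 (SE; edgeR adjusted p = 0.00157). With a library left out it was 1.61 to 2.81, the highest without UVB replicate 2. The ratio of summed counts was 3.99 with a 95% counting interval of 2.40 to 6.97. TXNDC5, on the opposite strand, overlaps 212 bases of the gene and had a mean of 228 counts in UVB + sauchinone and 151 in UVB, and because the sources used here do not say whether counting used strand, the level of BMP6 is uncertain.

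BMP4, a close relative of BMP2 (ENSG00000125378, chromosome 14 at 53949736 to 53958761, minus strand), had 161, 219 and 212 counts in the UVB + sauchinone libraries, against 173, 196 and 208 in the UVB libraries. The groups overlapped. Its log2 fold change was −0.04 ± 0.14 (SE; edgeR adjusted p = 0.833), with a 95% interval of the fold from 0.791 to 1.19. The summed level of the 3 BMP genes was 3.84, 4.34 and 4.2 FPKM in UVB + sauchinone replicates 1, 2 and 3, against 3.13, 3.43 and 3.43 FPKM in UVB replicates 1, 2 and 3. BMP2 made up 28.9%, 23.7% and 20% of that sum in UVB + sauchinone and 13.4%, 12.2% and 14.3% in UVB, and BMP4 was the largest part in each library.

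INHBA encodes the inhibin beta A subunit, which forms activin A (ENSG00000122641, chromosome 7 at 41667168 to 41705834, minus strand). It had 117, 129 and 112 CPM in UVB + sauchinone replicates 1, 2 and 3, against 189, 184 and 214 CPM in UVB replicates 1, 2 and 3. The lowest UVB library stood well above the highest UVB + sauchinone library. Its log2 fold change was −0.71 ± 0.081 (SE; edgeR adjusted p = 1.61e-07). INHBA-AS1, on the opposite strand, had means of 27.7 counts in UVB + sauchinone and 27.0 in UVB, against at least 2588 for INHBA in each library.

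The wider ligand lists held few expressed genes. Of 15 BMP ligand genes 6 were tested, of which 2 were higher (the 2 members above), 1 lower and 3 did not pass, with a median log2 fold change of 0.17, beside 0.0071 over all genes tested. Thus 50% of these 6 passed, near the 49.6% of all genes tested. GDF5, a ligand of joint development, was the lower one, at 0.836 ± 0.313 CPM in UVB + sauchinone and 2.12 ± 0.899 CPM in UVB, a log2 fold change of −1.34 ± 0.36 (SE; edgeR adjusted p = 0.00362, and 0.0587 without UVB replicate 1). GDF6, with a log2 fold change of −0.48, did not pass (edgeR adjusted p = 0.223). Of 12 activin and related ligand genes 4 were tested, with 1 higher and 2 lower and a median of −0.27. That is 75% of the 4, beside 49.6% of all genes tested. GDF11, a relative of myostatin, rose by 0.43 ± 0.086 on the log2 scale, at 87.3 ± 6.45 CPM in UVB + sauchinone and 64.8 ± 4.62 CPM in UVB. The other lower one besides INHBA, named after its values were seen, was MSTN, the myostatin gene, at 0.248 ± 0.110 CPM in UVB + sauchinone and 0.884 ± 0.359 CPM in UVB, near the floor in UVB + sauchinone. MSTN passed the filter on low counts only through UVB, the group where it was high, so a difference was built in and its p supports nothing. It fell by 1.81 on the log2 scale (edgeR adjusted p = 0.00477), and without UVB replicate 1 its value was −1.43, where it no longer passed (edgeR adjusted p = 0.0541).

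GREM1 encodes gremlin, a secreted protein that binds BMP2 and BMP4 (ENSG00000166923, chromosome 15 at 32718004 to 32745106, plus strand). It had 2061, 2233 and 2199 CPM in UVB + sauchinone replicates 1, 2 and 3, against 4169, 4002 and 4119 CPM in UVB replicates 1, 2 and 3. The groups were far apart relative to their spread, and GREM1 took 0.211%, 0.224% and 0.224% of all counts in UVB + sauchinone and 0.413%, 0.392% and 0.405% in UVB. Its log2 fold change was −0.92 ± 0.061 (SE; edgeR adjusted p = 3.98e-11), and −0.61 when a smooth trend of counts with exonic size, 14784 bases for this gene, was removed. The ratio of GREM1 to the summed BMP2, BMP4 and BMP6 FPKM was 37.2, 35.0 and 36.1 in UVB + sauchinone replicates 1, 2 and 3, against 89.3, 77.3 and 79.9 in UVB replicates 1, 2 and 3. GREM1-AS1, which overlaps it on the opposite strand, averaged 29.0 counts in UVB + sauchinone and 40.0 in UVB.

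FST encodes follistatin, which binds activins (ENSG00000134363, chromosome 5 at 53480626 to 53487134, plus strand). It had 49.9, 52.9 and 51.4 CPM in UVB + sauchinone replicates 1, 2 and 3, against 99.8, 91.0 and 99.3 CPM in UVB replicates 1, 2 and 3. Libraries within a group differed little, and the groups did not overlap. Its log2 fold change was −0.91 ± 0.082 (SE; edgeR adjusted p = 4.77e-09). The ratio of INHBA to FST in FPKM was 0.777, 0.808 and 0.722 in the UVB + sauchinone libraries, against 0.629, 0.670 and 0.715 in the UVB libraries. In an exact permutation test over samples, two-sided, this gave p = 0.1, the smallest that 3 libraries against 3 allow.

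The windows just before the RefSeq starts of both antagonist genes (GRCh38.p14, 250 bases each, 5′ to 3′ on the gene's strand) are shown because the 2 genes fell by like amounts from very different levels. Capitals mark matches on either strand to CCAAT, to the TATA motif TATAAA, to the GC-rich motif GGCGCC or to TGACG, which is part of the cAMP response motif. The GREM1 window lies at chr15:32717754-32718003 (plus strand) and the FST window at chr5:53480379-53480628 (plus strand).
GREM1: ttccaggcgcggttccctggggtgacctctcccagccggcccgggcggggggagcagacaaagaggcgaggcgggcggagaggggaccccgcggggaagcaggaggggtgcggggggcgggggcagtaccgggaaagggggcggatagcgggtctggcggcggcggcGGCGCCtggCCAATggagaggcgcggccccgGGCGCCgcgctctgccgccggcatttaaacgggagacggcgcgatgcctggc
FST: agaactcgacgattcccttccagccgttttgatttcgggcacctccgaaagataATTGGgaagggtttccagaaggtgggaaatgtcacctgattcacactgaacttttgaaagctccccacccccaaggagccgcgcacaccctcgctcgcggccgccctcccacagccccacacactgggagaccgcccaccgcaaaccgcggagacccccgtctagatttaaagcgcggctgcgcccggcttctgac
GREM1 held 2 matches to GGCGCC, a core bound by BMP-activated SMADs, found in 16.4% of 35116 such windows, and FST held none. Each held 1 match to CCAAT (32% of windows), and FST 1 match to TGANTCA (6.57% of windows). That pattern is looser than the AP-1 motif, since N is any base. The match in FST was TGATTCA, with T where the AP-1 consensus has C or G.

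Of 15 antagonist genes in the list 10 were tested, of which 6 were lower (GREM1 and FST among them), 1 higher and 3 did not pass, with a median log2 fold change of −0.58, beside 24.9% of all genes lower. With the trend over genomic span removed, 4 of the list were lower. BMPER, which encodes a secreted BMP binder of endothelial biology, had 11.7, 11.0 and 14.2 CPM in UVB + sauchinone replicates 1, 2 and 3, against 32.8, 34.4 and 35.4 CPM in UVB replicates 1, 2 and 3. Its log2 fold change was −1.47 ± 0.11 (SE; edgeR adjusted p = 3.15e-10) and −0.74 with the trend over genomic span removed. CRIM1, a membrane protein that tethers BMPs, had a log2 fold change of −0.73 ± 0.066, which was −0.11 with the trend over span removed and no longer passed (edgeR adjusted p = 0.168). TWSG1, which encodes a secreted BMP binder, had 236 ± 10.3 CPM in UVB + sauchinone and 339 ± 37.0 CPM in UVB, a log2 fold change of −0.52 ± 0.078 (SE; edgeR adjusted p = 8.48e-06).

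FSTL3, a follistatin relative that also binds activins, was the one that rose. It had 95.7, 93.3 and 98.3 CPM in UVB + sauchinone replicates 1, 2 and 3, against 44.0, 54.5 and 40.2 CPM in UVB replicates 1, 2 and 3, a log2 fold change of 1.05 ± 0.097 (SE; edgeR adjusted p = 8.17e-09). The groups did not overlap, and the direction was opposite to that of FST. NOG, FSTL1 and NBL1, named after their values were seen, did not pass, with log2 fold changes of −0.16, 0.05 and 0.06.

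ID1, whose product inhibits helix-loop-helix transcription factors (ENSG00000125968, chromosome 20 at 31605283 to 31606515, plus strand), had 113, 103 and 115 CPM in UVB + sauchinone replicates 1, 2 and 3, against 73.4, 90.3 and 56.9 CPM in UVB replicates 1, 2 and 3. UVB replicate 3 was the lowest and UVB replicate 2 the highest of its group, and all 3 lay below the UVB + sauchinone libraries. Over the genes tested, UVB replicates 2 and 3 also differed most of all pairs within a group. Their chi-square per degree of freedom was 20.3, against 4.12 to 9.38 in the other pairs. The part of this difference in the spread of ID1 was not tested. The log2 fold change was 0.58 ± 0.11 (SE; edgeR adjusted p = 0.000167), 0.43 without UVB replicate 3 and 0.76 without UVB replicate 2.

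ID3 (ENSG00000117318, chromosome 1 at 23557926 to 23559501, minus strand) had 157, 136 and 162 CPM in UVB + sauchinone replicates 1, 2 and 3, against 112, 122 and 86.3 CPM in UVB replicates 1, 2 and 3. The order of the libraries was the same as for ID1 in both groups. Its log2 fold change was 0.51 ± 0.10 (SE; edgeR adjusted p = 0.000221), and 0.37 without UVB replicate 3.

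ID2 (ENSG00000115738, chromosome 2 at 8678845 to 8684461, plus strand) had 171, 167 and 166 CPM in UVB + sauchinone replicates 1, 2 and 3, against 120, 128 and 120 CPM in UVB replicates 1, 2 and 3. It was the steadiest of the 3, with a coefficient of variation of 1.86% in UVB + sauchinone and 3.49% in UVB, where ID1 had 5.74% in UVB + sauchinone and 22.7% in UVB and ID3 had 9.12% in UVB + sauchinone and 17.2% in UVB. The log2 fold change was 0.45 ± 0.073 (SE; edgeR adjusted p = 1.99e-05). ID2-AS1 overlaps it on the opposite strand with means of 98.7 counts in UVB + sauchinone and 91.0 in UVB, against at least 2501 for ID2 in each library. The summed level of ID1, ID2 and ID3 was 280, 251 and 282 FPKM in UVB + sauchinone replicates 1, 2 and 3, against 187, 208 and 156 FPKM in UVB replicates 1, 2 and 3.

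The windows before the RefSeq starts of the ID genes are shown because the 3 genes rose together. Capitals mark the same motifs as above, and in ID1 the 2 strands of TATAAA overlap. The windows lie at chr20:31605039-31605288 (plus strand) for ID1, chr2:8681806-8682055 (plus strand) for ID2 and chr1:23559502-23559751 (minus strand) for ID3, all in GRCh38.p14, and the RefSeq start of ID2 lies 3211 bases downstream of the start of the deposited gene.
ID1: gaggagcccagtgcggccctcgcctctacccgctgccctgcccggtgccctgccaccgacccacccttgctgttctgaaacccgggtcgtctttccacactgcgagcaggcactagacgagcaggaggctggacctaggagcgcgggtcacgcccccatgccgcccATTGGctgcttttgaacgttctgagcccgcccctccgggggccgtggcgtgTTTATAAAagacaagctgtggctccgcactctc
ID2: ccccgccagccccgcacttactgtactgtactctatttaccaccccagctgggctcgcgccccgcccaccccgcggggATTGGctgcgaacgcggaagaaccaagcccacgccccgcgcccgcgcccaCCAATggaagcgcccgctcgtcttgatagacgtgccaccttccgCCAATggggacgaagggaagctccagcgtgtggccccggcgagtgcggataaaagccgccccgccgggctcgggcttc
ID3: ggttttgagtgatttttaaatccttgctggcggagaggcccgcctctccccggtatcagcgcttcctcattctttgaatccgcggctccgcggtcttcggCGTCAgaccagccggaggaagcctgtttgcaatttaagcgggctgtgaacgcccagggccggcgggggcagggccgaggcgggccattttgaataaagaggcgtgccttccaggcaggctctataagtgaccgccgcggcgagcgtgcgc
ID1 held 1 and ID2 3 matches to CCAAT, at −84 in ID1 and at −172, −122 and −78 in ID2, counted from the RefSeq start, and ID3 held none. TATAAA, found in 10.7% of windows, was in the ID1 window alone of these 3, and TGACG, found in 21.2%, in that of ID3. None of the 3 held GGCGCC or the full cAMP response motif TGACGTCA (in 1.65% of windows), which contains TGACG. Nor did any hold the palindromic SMAD motif GTCTAGAC (0.182%), the E-box CACGTG (6.34%) or the loose AP-1 pattern TGANTCA. No motif searched was shared by all 3.

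Across all genes, fold changes followed genomic span, and the ID genes are short. In the shortest of 5 equal groups of genes, with spans up to 6.93 kb, 29.4% of genes were higher and 8.12% lower, with a median log2 fold change of 0.20; ID1, ID2, ID3 and FST belong to it. With the smooth trend over span removed, ID1, ID2 and ID3 had log2 fold changes of 0.40, 0.23 and 0.32 and still passed (edgeR adjusted p = 0.00414, 0.00743 and 0.00893). FST, of the same span group, was at −1.13 with the trend removed, against −0.91 without that step, so its value shifted downward as those of the ID genes did. BMP6 spans 156 kb, where 58.5% of genes were lower, and its log2 fold change became 2.47.

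**Figure D3:**
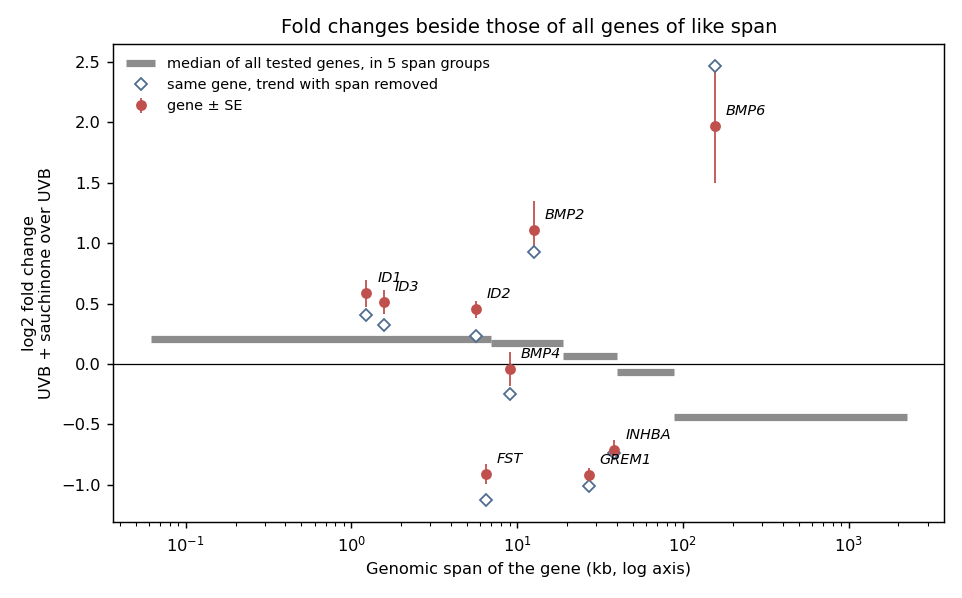
Log2 fold change of the 9 genes against genomic span (log axis), as circles with SE, beside the median of all tested genes in each of 5 span groups (grey bars); diamonds give the same genes with the trend over span removed. The ID genes lie above the grey bar of their span at 0.45 to 0.58, and FST, GREM1 and INHBA lie below theirs at −0.91, −0.92 and −0.71.

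Of 14 genes in a list of BMP targets 13 were tested, the 3 ID genes included; 8 were higher, 2 lower and 3 did not pass, with a median log2 fold change of 0.51, beside 24.7% of all genes higher. ID4, the remaining gene of the ID family, had 29.5, 27.5 and 28.6 CPM in UVB + sauchinone replicates 1, 2 and 3, against 15.7, 16.4 and 16.0 CPM in UVB replicates 1, 2 and 3. It thus rose with the other ID genes, with a log2 fold change of 0.83 ± 0.10 (SE; edgeR adjusted p = 4.37e-07). MSX1, a homeobox gene, rose by 1.39 ± 0.18 on the log2 scale, at 8.34 ± 1.51 CPM in UVB + sauchinone and 3.19 ± 0.507 CPM in UVB. SMAD7, an inhibitory SMAD, rose by 0.58 ± 0.088. The 2 lower ones were SMAD9, at −0.72 ± 0.10, and RUNX2, a bone transcription factor named after its values were seen, at −0.90. With the trend over genomic span removed, RUNX2 was at −0.09 and no longer passed (edgeR adjusted p = 0.701). SMAD6, ATOH8 and MSX2, named after their values were seen, did not pass, with log2 fold changes of −0.13, −0.20 and 0.11.

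For each ID gene the profile over the 6 libraries, as mean-centred log2 CPM, lay nearest to those of STARD3 and PSMG3 (ID1), SDHA and HCCS (ID2) and MRPL2 and ATP13A2 (ID3), at Euclidean distances of 0.0551 to 0.131 among 13542 genes. These distances describe 6 libraries that fall into 2 groups.

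Receptor genes moved both ways. Of 16 in the list 12 were tested, of which 3 were higher, 6 lower and 3 did not pass, with a median of −0.23. Of all genes tested, 24.7% were higher and 24.9% lower. ACVR1C, among the lower ones and named after its values were seen, had 0.148 ± 0.115 CPM in UVB + sauchinone and 0.928 ± 0.342 CPM in UVB. It passed the filter on low counts only through UVB, the group where it was high, so its p supports nothing. With the trend over genomic span removed, 4 receptor genes were higher and 4 lower. BAMBI, a decoy receptor without a kinase domain, was at 6.18 ± 1.72 CPM in UVB + sauchinone and 2.31 ± 0.174 CPM in UVB and rose, with a log2 fold change of 1.42 ± 0.22 (SE; edgeR adjusted p = 1.20e-05). BMPR2, the type II BMP receptor, had 146 ± 7.13 CPM in UVB + sauchinone and 229 ± 22.2 CPM in UVB, a log2 fold change of −0.66 ± 0.080. With the trend over its span of 191 kb removed it was −0.04 and no longer passed (edgeR adjusted p = 0.700). TGFBR3, a co-receptor, and RGMB, a BMP co-receptor, had log2 fold changes of −1.0 ± 0.12 and −0.49 ± 0.069, which were −0.31 and −0.56 with the trend removed. ACVR1B and ACVR2A, activin receptor genes named after their values were seen, were higher by 0.53 and 0.68.

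Of 10 genes of SMADs and their ubiquitin ligases, all were tested, and 4 were higher, 4 lower and 2 did not pass, with a median of 0.05. Thus 80% passed, beside 49.6% of all genes tested. SMAD3, which carries activin signals, had 95.6 ± 1.48 CPM in UVB + sauchinone and 158 ± 4.42 CPM in UVB, a log2 fold change of −0.72 ± 0.074 (SE; edgeR adjusted p = 3.41e-08) that was −0.33 with the trend over span removed. SMURF1, a ligase that marks BMP SMADs for breakdown, rose by 0.66 ± 0.080. SMAD1 and SMAD5, which carry BMP signals and were named after their values were seen, had log2 fold changes of 0.24 and 0.23, of which that of SMAD5 passed and that of SMAD1 did not (edgeR adjusted p = 0.0275 and 0.0739). The call of SMAD5 was lost when any library but UVB replicate 3 was left out, with log2 fold changes of 0.16 to 0.26 and edgeR adjusted p of 0.0517 to 0.143.

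The E protein genes, whose products ID proteins bind, differed in direction. All 3 passed, beside 49.6% of all genes tested. TCF12 had 77.4 ± 3.28 CPM in UVB + sauchinone and 166 ± 19.2 CPM in UVB, a log2 fold change of −1.10 ± 0.086 (SE; edgeR adjusted p = 4.91e-10). TCF4 was at −0.79 ± 0.10, and TCF3 at 0.33 ± 0.11 (edgeR adjusted p = 0.0184, and 0.160 and 0.0804 without UVB + sauchinone replicate 1 or UVB replicate 1). TCF12 and TCF4 span 381 and 443 kb, and with the trend over span removed their log2 fold changes were −0.26 and 0.08, that of TCF4 then not passing (edgeR adjusted p = 0.499).

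Over all 7 lists, each gene counted once and the 9 genes left out, 45 of 72 genes were tested, of which 13 were higher, 19 lower and 13 did not pass, so 71.1% passed, beside 49.6% of all genes. The lists were chosen with earlier results of these data known. This contrast and those of the single lists therefore describe these data and support nothing. The median log2 fold change of these 45 was −0.13, beside 0.0071 over all genes.

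**Figure D4:**
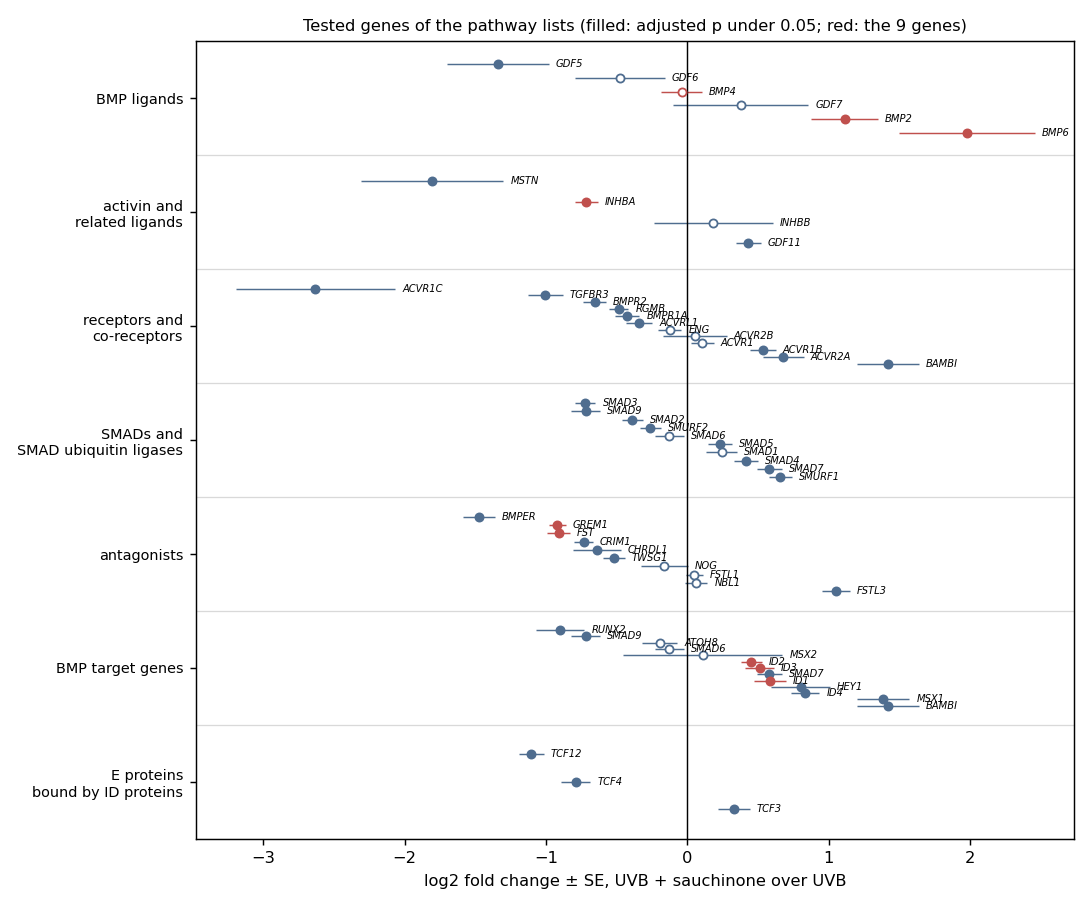
Log2 fold change with SE (UVB + sauchinone over UVB) of every tested gene of the 7 lists; filled points passed at an adjusted p under 0.05 and red marks the 9 genes. Antagonists lie mostly left of 0, with FSTL3 at 1.05 to the right, and targets mostly right of 0.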

How the data were processed

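The authors deposited 1 table that gives, for 61806 genes, raw read counts and FPKM in each library and the gene's exonic size. The build was GRCh38, per the submitters' processing notes. Libraries were strand-specific, made after poly(A) selection or depletion of ribosomal RNA, per the labels' protocols, which do not say which. The aligner, counter, annotation release and use of strand in counting are not stated in the labels or headers. Deposited FPKM values matched values recomputed from the counts (100% within 0.006) and served to compare levels between genes.

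The test used edgeR 4.0.16 in R 4.3.3, with filterByExpr (15704 genes kept), TMM scaling and the two-sided quasi-likelihood test of UVB + sauchinone over UVB, without covariates. Benjamini-Hochberg adjustment ran over every gene kept, at 0.05. Standard errors are the log2 fold change divided by the root of F, with a median of 0.12. CPM values use TMM-adjusted library sizes. Trends with genomic span or exonic size were removed by lowess offsets per library. Promoter windows came from RefSeq (8 of the 9 genes matched), and motifs were searched on both strands.

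The 9 genes and the lists were chosen with earlier results of these data known. From each list up to 4 further genes with the smallest p and a mean of at least 1 CPM were named, and others are said to be named after their values were seen. A gene of the antagonist list and a marker of the immune list are not reported here and were left out of the counts over those lists. The test was checked on simulated counts of 15421 genes, with changes of 1.5-fold in 67, 2-fold in 67 and 4-fold in 66 of them. It recovered 55.2%, 79.1% and 97% of these, with 12 false calls among 166. Far fewer genes changed there than the 7786 called here, so the check does not carry over to these data in full. Alternatives were other normalizations and filters, DESeq2 1.42.0, limma-voom (limma 3.58.1), the replicate number as a block, both trend removals and each library left out.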

Additional observations from a re-analysis of the deposited data

How the results depend on the processing

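The directions and calls of the 8 genes that passed held under every alternative that tested them. BMP6, whose call is no support for the reason given above, was not among the genes tested with a mean of at least 1 CPM. BMP4 never passed, and its log2 fold change was 0.0030 with total counts only and −0.12 to 0.068 with a library left out. Genes called over all genes numbered 7786, with 7280 under the replicate block, which left 5 of the 9 genes higher and 3 lower and changed no call among the other genes refitted under each alternative. Same-numbered libraries did not deviate together (correlations of 0.0072, −0.078 and −0.031), and those of different number gave −0.070 to 0.098. With 3 libraries per group these values cannot show whether libraries were handled in pairs, which the labels do not say. With genomic span removed, SMADs and ligases called lower numbered 2, BMP targets called lower 1 and E proteins called lower 1, TCF4 turned to 0.076, and BMPR2, CRIM1 and RUNX2 no longer passed. With exonic size removed, antagonists called higher numbered 2. With a mean of at least 1 CPM, BMP ligands called higher and activin-related ligands called lower numbered 1 each, since BMP6 and MSTN were not tested. With a library left out, BMP ligands called lower numbered 0 to 1, activin-related ligands called lower 1 to 2 and E proteins called higher 0 to 1, the lowest values without UVB replicate 1 and, for E proteins, also without UVB + sauchinone replicate 1. The alternatives for RUNX2, MSTN, ACVR1B, ACVR2A and SMAD5 were added after seeing the data. The cause was not tested where none is given. Depth limits genes with few counts per library, among them BMP6, MSTN, MSX2, GDF5 and GDF6.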
